A study of Mus musculus with 6 samples.

Results

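The long non-coding RNAs Neat1, Malat1, Meg3, Rian, Mirg, Miat and Snhg11 are described here in the auditory cortex of C57 mice. They are 7 of the 50559 rows of the deposited tables, taken by gene symbol. They were chosen by their levels and by the differences in CPM between the groups in these same libraries, so those values are given as a description, with no test. The libraries were 3 labelled WNT3 overexpressing and 3 labelled WNT3 control, all from C57 mice, sequenced from total RNA. The study aimed to find molecular changes in this cortex when Wnt3, a secreted Wnt ligand, is raised. The labels give neither the means of overexpression nor what controls received, nor the age of the mice. They also leave unsaid if each replicate is its own animal, and p-values therefore cover only the spread between these samples. The tissue label reads auditory cortex and the extraction protocol names striatum.

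Long non-coding RNAs are transcripts made like messenger RNAs that are not read into protein. Neat1 is the scaffold of paraspeckles, nuclear bodies that hold RNA-binding proteins, and is made as a short polyadenylated form and a long form that builds the body. Malat1, its neighbour, lies in nuclear speckles, where splicing factors gather. Meg3, Rian and Mirg are read from the maternal chromosome in the imprinted Dlk1-Dio3 region and carry microRNAs and small nucleolar RNAs. Miat, also called Gomafu, is a nuclear RNA of neurons, and Snhg11 is a host gene of small nucleolar RNAs that is abundant in brain.

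Neat1 lies on chromosome 19 of mm10 at chr19:5824708-5845478 on the minus strand, and Malat1 at chr19:5795690-5802672 on the same strand, 22035 bases away. GENCODE M21 gives Neat1 a single-exon transcript of 20771 bases and a shorter one of 3004 bases that ends inside the gene. The last 80 bases of both transcripts are shown because the forms differ in where they end. Capitals mark the polyadenylation signal AATAAA, searched as AATAAA or ATTAAA in the sense strand alone.
Short Neat1 transcript (Neat1-202), chr19:5842307-5842386, minus strand: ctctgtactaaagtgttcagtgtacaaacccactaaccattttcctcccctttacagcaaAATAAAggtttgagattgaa
Long Neat1 transcript (Neat1-201), chr19:5824708-5824787, minus strand: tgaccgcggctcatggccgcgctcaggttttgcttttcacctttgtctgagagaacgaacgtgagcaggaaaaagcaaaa
The signal begins 20 bases before the end of the short transcript, and neither hexamer occurs in the last 80 bases of the long one.

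Meg3 (chr12:109541001-109571726), Rian (chr12:109603940-109661716) and Mirg (chr12:109729764-109749460) follow each other on the plus strand of chromosome 12, with 32213 bases between Meg3 and Rian and 68047 between Rian and Mirg. Miat is at chr5:112213228-112229395 on the minus strand and Snhg11 at chr2:158375638-158386145 on the plus strand. RefSeq types all 7 as long non-coding RNA, whereas GENCODE M21 lists Snhg11 as protein coding. The start regions of Meg3 and Malat1, the most counted member of each cluster, are shown from RefSeq GRCm38.p6, 250 bases before to 50 bases after the start. Capitals mark TGACGTCA (the cAMP response element), its part TGACG and the TATA box letters TATAAA. These and TGACTCA (the AP-1 element, without a match in either window) were searched on both strands, and each TGACGTCA also holds TGACG on both strands.
Meg3 start region, chr12:109540746-109541045, plus strand: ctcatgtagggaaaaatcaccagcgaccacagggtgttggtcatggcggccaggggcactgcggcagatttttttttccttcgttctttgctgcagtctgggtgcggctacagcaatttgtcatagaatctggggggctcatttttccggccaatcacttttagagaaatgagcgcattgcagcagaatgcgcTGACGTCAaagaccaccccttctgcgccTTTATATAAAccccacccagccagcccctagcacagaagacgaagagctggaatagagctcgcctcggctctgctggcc
Malat1 start region, chr19:5802623-5802922, minus strand: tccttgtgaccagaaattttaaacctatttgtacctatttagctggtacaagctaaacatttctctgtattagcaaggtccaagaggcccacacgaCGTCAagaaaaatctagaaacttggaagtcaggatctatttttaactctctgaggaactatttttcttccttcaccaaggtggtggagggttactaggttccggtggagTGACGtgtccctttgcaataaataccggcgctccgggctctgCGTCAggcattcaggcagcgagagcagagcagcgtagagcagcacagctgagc
The Meg3 window holds TGACGTCA, beginning 57 bases before the start, a sequence found in 1.79% of the 32851 windows of this length in the table. It also holds TATAAA on both strands, overlapping, which 13.6% of windows hold on either strand. The Malat1 window has 3 matches to TGACG, present in 20.8% of windows, and none to TGACGTCA. TGACTCA is in 5.2% of windows. The first windows of Snhg11 and Miat have no match to any of these letters and are richer in G and C, at 60.0% and 64.3%, against 47.0% in that of Malat1 and a median of 52.7% over all windows. These matches describe letters only.

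MicroRNAs are cut from hairpins inside Meg3, Rian and Mirg, and their mature forms pair with messenger RNAs through the seed, bases 2 to 8. RefSeq places 3 mature microRNAs within Meg3, 6 within Rian and 26 within Mirg. Examples from each host are shown with the seed in capitals, since they are the known products of these RNAs.
mmu-miR-770-3p (in Meg3): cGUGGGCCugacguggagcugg
mmu-miR-370-3p (in Rian): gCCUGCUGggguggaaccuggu
mmu-miR-134-5p (in Mirg): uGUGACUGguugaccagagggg
mmu-miR-410-3p (in Mirg): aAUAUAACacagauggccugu
mmu-miR-453 (in Mirg): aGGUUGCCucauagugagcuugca
mmu-miR-496a-5p (in Mirg): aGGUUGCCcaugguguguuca
The last 2 share the seed GGUUGCC, the only seed that 2 of the 35 mature microRNAs have in common. These libraries were not made for short RNAs, and rows for the hairpins held from 0 to 58 counts per library inside Mirg and from 2 to 78 inside Rian. Mir770 and Mir410 had 1 count in each of the 6 libraries.

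Wnt3 itself had 98.8, 7.45 and 8.71 CPM in overexpression libraries 1 to 3 and 2.70, 1.91 and 1.74 CPM in controls 1 to 3, so the groups did not overlap and overexpression library 1 was far above the rest. Total counts ran from 42614588 to 71803617 per library. Control 2 stood apart from the other libraries. Ribosomal 18S RNA (Rn18s-rs5) took 1.39% of its counts, against 0.29 to 0.45% in the other 5, and the short neuronal RNA Bc1 took 0.89%, against 0.15 to 0.21%. Mitochondrially encoded genes took 12.5% of counts in control 2 and 9.12 to 10.6% elsewhere. Genes were also shifted by transcript length in control 2 relative to the mean of controls 1 and 3. Tested genes of 500 to 1000 bases had a median log2 difference of 0.72, genes of 4000 to 8000 bases one of -0.41 and genes over 8000 bases one of -0.65. In each of the other libraries, set against the remaining ones, the medians of the same classes lay between -0.07 and 0.07. The values of the 7 RNAs and the medians of gene lists are therefore given with and without control 2.

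The 7 RNAs together took 1.65, 2.01 and 1.71% of the counts in overexpression libraries 1 to 3 and 1.88, 1.05 and 1.41% in controls 1 to 3. Per length, in TPM, the order of mean levels over the 6 libraries was Snhg11 (1710.0), Meg3 (1632), Malat1 (818), Rian (462), Miat (242.5), Neat1 (143) and Mirg (32.5). Ranked among all 50559 rows by mean TPM these stood from 31 for Snhg11 to 861 for Neat1, and Mirg stood at 4550, so Mirg was not an abundant row. Snhg11 was above Meg3 in all 3 overexpression libraries and in control 2, and below it in controls 1 and 3, so this pair did not differ beyond its spread. Malat1, Rian and Miat held places 3, 4 and 5 in all 6 libraries. Neat1 was above Mirg in 5 libraries and below it in control 2, at 39.6 against 45.4 TPM.

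All overexpression libraries had more Neat1 than each of the controls. It had 244, 279 and 287 CPM (a count relative to the TMM-scaled library size) in overexpression libraries 1 to 3, against 165, 127 and 119 CPM in controls 1 to 3. The overexpression mean was 270.2 ± 23.0 CPM and the control mean 137 ± 24.6 CPM (SD, n = 3 each), and the groups did not overlap. The log2 fold change from the edgeR fit was 0.98 ± 0.18 (SE), a fold of 1.97, and without control 2 it was 0.93 ± 0.16 (SE), a fold of 1.91. Left-out libraries gave log2 fold changes from 0.89 to 1.14. Of all tested genes, 2.79% had a log2 fold change as high or higher.

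In TPM the difference in Neat1 was larger. The deposited TPM values were 194, 212 and 213 in overexpression and 119, 39.6 and 82.7 in controls, a difference of 1.5 on the log2 TPM scale, or 1.06 without control 2. The count-to-TPM ratio of a gene is proportional to the transcript length that entered its TPM. It is used here as an estimate of the mean length of the Neat1 forms behind the authors' values. The annotation behind those values is not known. Of genes with 1 GENCODE transcript, 55.1% had an implied length within 20% of the annotated one. Scaled to Malat1 at 6983 bases, the length implied for Neat1 was 3233, 3246 and 3231 bases in overexpression libraries 1 to 3. It was 3354, 5334 and 3433 bases in controls 1 to 3. All but control 2 lay near the 3004-base short transcript rather than the 20771-base long one, and control 2 stood apart with the longest value. Rn7sk, an RNA without a poly(A) tail, had 41.0 CPM in control 2 and 5.68 to 10.55 CPM in the other libraries. How well RNAs without such a tail were captured was not tested, so the count-to-TPM ratio does not give the balance of the Neat1 forms in the tissue. By the same ratio Rian, Snhg11 and Mirg had 1 length in all libraries to within 1 base, at 3584, 6118 and 1300 or 1301 bases, and Miat ranged from 8717 to 8736 bases. Meg3 ranged from 10748 to 11167 bases in overexpression and from 9441 (control 2) to 10795 bases in controls.

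Malat1, transcribed from the same strand next door, had groups that overlapped. It had 2097, 2559.7 and 2122 CPM in overexpression libraries 1 to 3 and 3514, 1903.5 and 2459 CPM in controls 1 to 3. Controls lay on both sides of the overexpression values. The mean was 2260.0 ± 260.2 CPM in overexpression and 2625 ± 818 CPM in controls (SD, n = 3 each). The log2 fold change of Malat1 was -0.22 ± 0.24 (SE), or -0.40 ± 0.16 (SE) without control 2 and 0.05 without control 1. Its TPM was 772, 905 and 728 in overexpression and 1212, 451 and 842 in controls, which again lay on both sides. Within a library, where no scaling enters, there were 11.6, 10.9 and 13.5 Neat1 counts per 100 Malat1 counts in overexpression and 4.70, 6.69 and 4.83 in controls. The ratio averaged 12.03 ± 1.36 in overexpression and 5.41 ± 1.12 in controls (SD, n = 3 each), with no overlap. The plot of this ratio and of the implied Neat1 length shows both by library.

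**Figure D1:**
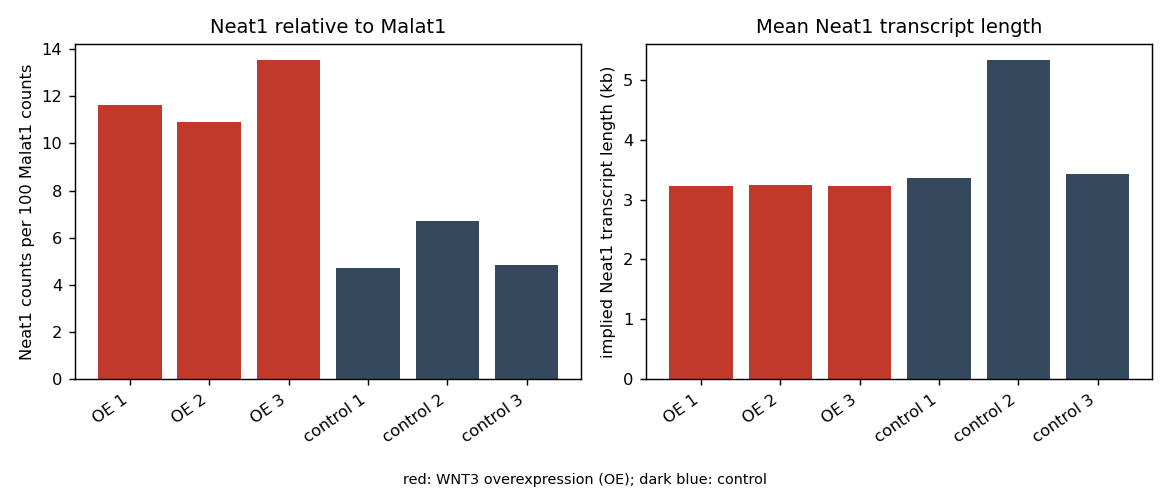
Left, Neat1 counts per 100 Malat1 counts in each library; right, the mean Neat1 transcript length in kb implied by the deposited counts and TPM, with Malat1 set at its annotated length. The 3 overexpression bars on the left, 10.9 to 13.5, all exceed the 3 control bars, 4.70 to 6.69; on the right only control 2 departs from about 3 kb.

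The balance of genes around the Neat1 and Malat1 pair depended on control 2. Of 31 tested genes within 250000 bases of the pair, 7 were higher and 24 lower. The median of their log2 fold changes was -0.20, against -0.0069 over all tested genes. Without control 2, 14 were higher and 17 lower, with a median of -0.02. None was called by the edgeR quasi-likelihood test at an adjusted p of 0.05, where 0% of all tested genes were called, and 2 had an unadjusted p under 0.05, against 4.65% of all tested genes. These were Rnaseh2c, a subunit of the nuclease that cuts RNA paired with DNA, at 3.21, 3.98 and 5.28 CPM in overexpression and 6.90, 14.1 and 5.76 CPM in controls, and Znrd2, a zinc ribbon protein gene. Both were highest in control 2, without which their log2 fold changes were -0.60 for Rnaseh2c, against -1.10 with it, and -0.32 for Znrd2, against -0.78 with it. The groups overlapped for Frmd8, a protein gene beside the pair, whose log2 fold change was -0.46 ± 0.26 (SE), or -0.21 ± 0.21 (SE) without control 2.

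**Figure D2:**
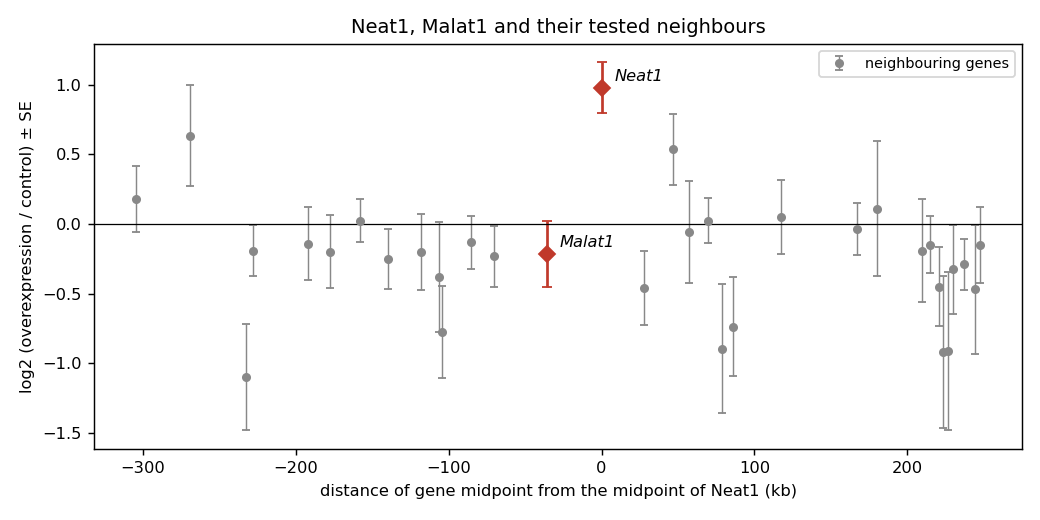
Log2 fold change (overexpression over control, ± SE) of Neat1, Malat1 (red diamonds) and their 31 tested neighbours (grey points) against distance in kb between gene midpoints and the midpoint of Neat1. Neat1, at 0.98, is above all other points, which run from -1.10 to 0.63, while Malat1 lies among them.

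Genes for the proteins of paraspeckles lay on both sides of zero. Of 24 listed genes, all tested, 15 were higher and 9 lower. The median of their log2 fold changes was 0.08, and -0.0021 without control 2. None was called over all genes and none had an unadjusted p under 0.05. Sfpq, a core paraspeckle protein needed for the stability of Neat1, had 573, 674 and 660.4 CPM in overexpression and 524, 265 and 482 CPM in controls. Its groups did not overlap. Of the 24 genes, 4 including Sfpq were higher without overlap and 0 lower, against 5.89% and 6.04% of all tested genes. The log2 fold change of Sfpq was 0.59 ± 0.26 (SE), or 0.34 ± 0.10 (SE) without control 2, its lowest library. The Sfpq partner Nono, at 0.11 ± 0.15, and Pspc1, the third member of the same protein family, at 0.06 ± 0.16 (log2 fold change ± SE), had groups that overlapped. Without control 2 the log2 fold changes were 0.07 for Nono and 0.0068 for Pspc1. Matr3, a nuclear matrix protein and the other most counted gene of the list, stood at 563, 537 and 483 CPM in overexpression and 555, 403 and 519.9 CPM in controls.

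Genes for nuclear speckle proteins, the company of Malat1, had log2 fold changes with a median of 0.21, and of 0.12 without control 2. Of the 25 tested, 23 were higher and 2 lower, but none was called and none had an unadjusted p under 0.05. Srrm2, a large scaffold protein of speckles, had 1044, 1291 and 1044 CPM in overexpression and 1036, 456 and 924 CPM in controls. Clk1, a kinase of splicing factors, had 186, 222 and 233 CPM in overexpression and 146, 142 and 203 CPM in controls. Relative to the mean of controls, the median over the list in log2 CPM was 0.19, 0.30 and 0.20 in overexpression and 0.18, -0.18 and 0.02 in controls, so control 1 was close to overexpression libraries 1 and 3.

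Meg3, the first RNA of the Dlk1-Dio3 cluster, was lowest in control 2. It had 7696, 9531 and 8079.9 CPM in overexpression libraries 1 to 3 and 8444, 4198 and 6562.5 CPM in controls 1 to 3. Control 1 was above overexpression libraries 1 and 3, so the groups overlapped. The mean was 8435 ± 968 CPM in overexpression and 6401 ± 2128 CPM in controls (SD, n = 3 each), a log2 fold change of 0.40 ± 0.25 (SE). Without control 2 it was 0.17 ± 0.13 (SE), and without control 1 it was 0.65. Meg3 had 1783.5, 2108 and 1801 TPM in overexpression and 1911, 736 and 1453 TPM in controls, where the first control again lay inside the overexpression range.

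Rian, the next RNA of the cluster, was at 654, 701 and 807 CPM in overexpression and 834, 548 and 697 CPM in controls. Highest and lowest were both controls. Its log2 fold change was 0.06 ± 0.20 (SE), -0.09 ± 0.12 (SE) without control 2 and -0.04 without overexpression library 3. There were 8.50, 7.36 and 9.99 Rian counts per 100 Meg3 counts in overexpression and 9.88, 13.05 and 10.6 in controls. Overexpression library 3 lay just above control 1 in this ratio. In TPM, Rian stood at 469, 483 and 539 in overexpression and 561, 253 and 465 in controls, again with control 2 lowest.

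Mirg, the microRNA host at the far end, went the other way in control 2. It had 13.3, 16.7 and 21.8 CPM in overexpression libraries 1 to 3 and 13.2, 35.6 and 14.8 CPM in controls 1 to 3, so control 2 was the highest library. The log2 fold change was -0.30 ± 0.39 (SE) with all libraries and 0.31 ± 0.22 (SE) without control 2, a change of direction. There were 0.17, 0.18 and 0.27 Mirg counts per 100 Meg3 counts in overexpression and 0.16, 0.85 and 0.23 in controls. Control 2 was far above the other 5 libraries, which lay together. The TPM of Mirg was 26.3, 31.7 and 40.2 in overexpression and 24.4, 45.4 and 27.2 in controls, where control 2 was closer to overexpression library 3.

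Summed counts of the small RNA rows inside Rian and Snhg11 were lowest in control 2, and those inside Mirg were not. The 11 small nucleolar RNA rows inside Rian held 521, 670 and 818 counts in overexpression libraries 1 to 3 and 546, 185 and 551 in controls 1 to 3. The 3 hairpin rows inside Rian held 103, 92 and 110 counts in overexpression and 64, 27 and 78 in controls. Single rows did not all follow these sums, since AF357425 inside Rian had 15, 20 and 22 counts in overexpression and 17, 16 and 16 in controls. Snhg11 holds 2 small nucleolar RNA rows, Gm25129 and LOC115489592, with 227, 267 and 215 counts together in overexpression and 209, 34 and 161 in controls. The 14 microRNA hairpin rows inside Mirg held 159, 176 and 244 counts in overexpression and 93, 131 and 116 in controls, from libraries of 42614588 to 71803617 counts. The hairpins lie in the same strand as their hosts, and fragments of a host transcript and of a hairpin cannot be told apart.

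Genes in and beside the Dlk1-Dio3 region had more members below zero than above. Of 13 tested, 4 were higher and 9 lower. Their log2 fold changes had a median of -0.09, and of -0.05 without control 2. None was called, and Begain, a postsynaptic protein gene beside the region, was the 1 with an unadjusted p under 0.05, lower as were 2.8% of all tested genes at that p. Its log2 fold change was -0.69 ± 0.28 (SE), or -0.30 ± 0.11 (SE) without control 2. It had 42.8, 46.4 and 52.2 CPM in overexpression and 58.6, 112.75 and 57.3 CPM in controls. The row of Rtl1, a paternally expressed gene derived from a retrotransposon, had 684, 1172 and 876 CPM in overexpression and 925, 1069.5 and 689 CPM in controls. The strand setting of the counting is not given, so it is not known if these counts come from the strand of Rtl1 alone. Among 35 tested genes imprinted elsewhere the median was 0.12, or -0.0044 without control 2; 1 was higher and 1 lower at an unadjusted p under 0.05, against 1.86% and 2.8% of all tested genes. The lower one was Kcnq1ot1, an imprinted antisense RNA, at 35.2, 32.2 and 35.5 CPM in overexpression and 40.3, 56.6 and 45.4 CPM in controls. The higher one, Airn, which silences Igf2r, had a mean near 1 CPM.

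Miat, the neuronal nuclear RNA, was closest to Meg3 in profile. It was at 948, 1053 and 959.96 CPM in overexpression libraries 1 to 3 and 1005, 589 and 822 CPM in controls 1 to 3. Control 1 lay inside the overexpression range. Miat had 279, 298 and 263 TPM in overexpression and 277, 112 and 225 TPM in controls, with the same control inside the overexpression range. Its log2 fold change was 0.29 ± 0.21 (SE), or 0.11 ± 0.11 (SE) without control 2 and 0.49 without control 1. The root mean square difference between the centred log2 CPM profiles of Miat and Meg3 over the 6 libraries was 0.10, the smallest of the 21 pairs of members, and that between Meg3 and Mirg was 0.83, the largest.

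Snhg11 was at 4414, 5697 and 4882 CPM in overexpression libraries 1 to 3 and 4786, 3368 and 3574.5 CPM in controls 1 to 3. The mean was 4998 ± 649 CPM in overexpression and 3909.7 ± 766 CPM in controls (SD, n = 3 each), with control 1 above overexpression library 1. The log2 fold change was 0.35 ± 0.19 (SE), 0.26 ± 0.15 (SE) without control 2 and 0.53 without control 1. Its TPM was 1854, 2299.9 and 1912 in overexpression and 1885, 912 and 1397 in controls. On the log2 TPM scale the difference was 0.59, or 0.31 without control 2.

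**Figure D3:**
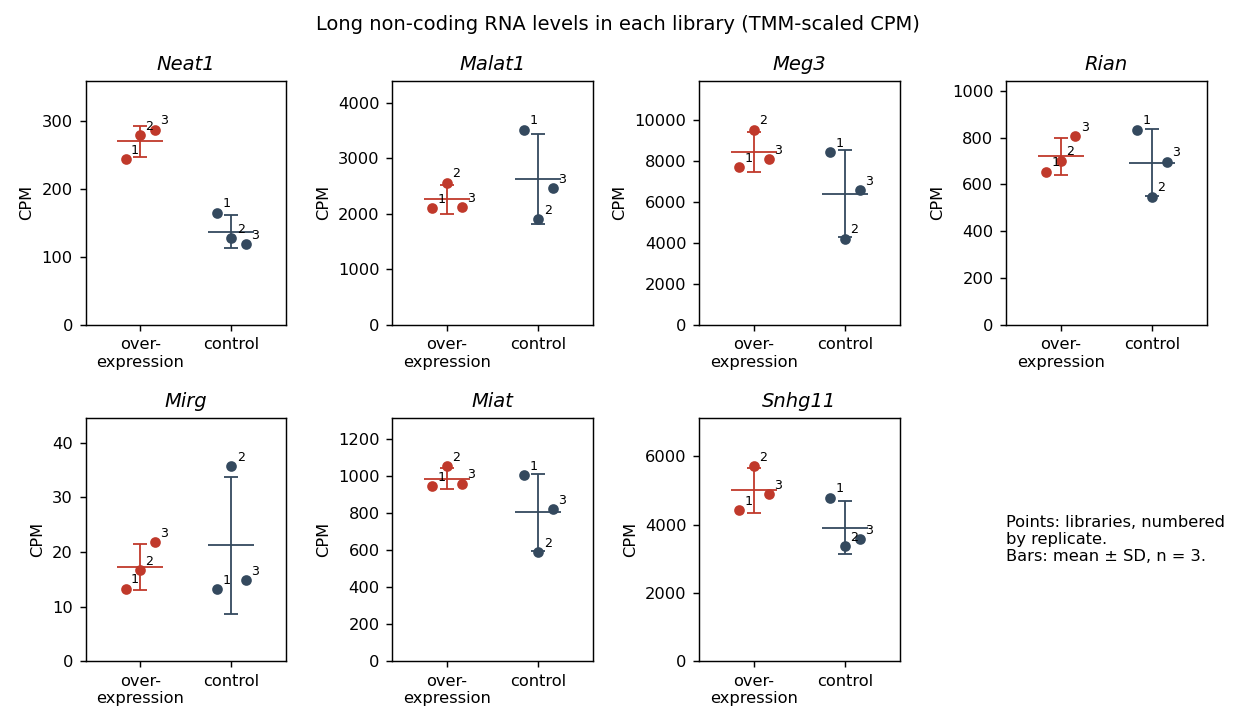
TMM-scaled CPM of the 7 RNAs in each library, with WNT3 overexpression in red and control in dark blue; numbered points are libraries and bars are mean ± SD (n = 3). Only Neat1 has groups that do not overlap, and control 2 is the lowest library for Malat1, Meg3, Rian, Miat and Snhg11 and the highest for Mirg.

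**Figure D4:**
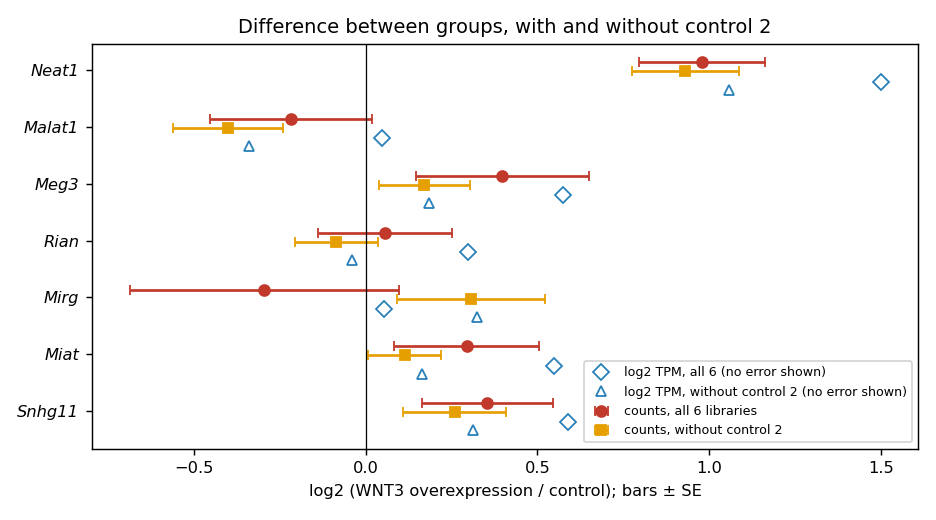
Log2 fold change of each RNA (overexpression over control) from counts with its SE, with all libraries (circles) and without control 2 (squares), and as a difference of mean log2 TPM (open symbols). Neat1 stays between 0.93 and 1.5 in all 4, whereas Malat1, Rian and Mirg change sign among them.

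Of the 7 RNAs, 1 had groups that did not overlap in CPM, against 11.9% of all tested genes, 5.89% being higher and 6.04% lower in overexpression. No gene was called over the whole table by edgeR at an adjusted p of 0.05, the lowest being 0.822, and 1040 of 22360 had an unadjusted p under 0.05. DESeq2 called 64 genes.

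Among the members, control 2 was lowest relative to the other controls for the longest RNA and highest for the shortest, but the order in between did not follow length. Meg3, with the longest implied length, was 0.83 lower in control 2 than the mean of controls 1 and 3 on the log2 CPM scale. Malat1 and Miat were both 0.63 lower, Rian 0.48 lower, Snhg11 0.30 lower and Neat1 0.14 lower. Rian, at 3584 bases, thus lay below Snhg11, at 6118 bases, and below the lower quartile of -0.25 for genes of 2000 to 4000 bases. Mirg, the shortest at 1300 bases, was 1.35 higher, above the upper quartile of 0.84 for genes of 1000 to 2000 bases. With the trend on length removed from each library, a setting added after the data were seen, the log2 fold changes were 0.96 for Neat1, -0.40 for Malat1, 0.24 for Meg3, 0.01 for Rian, 0.03 for Mirg, 0.10 for Miat and 0.17 for Snhg11.

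**Figure D5:**
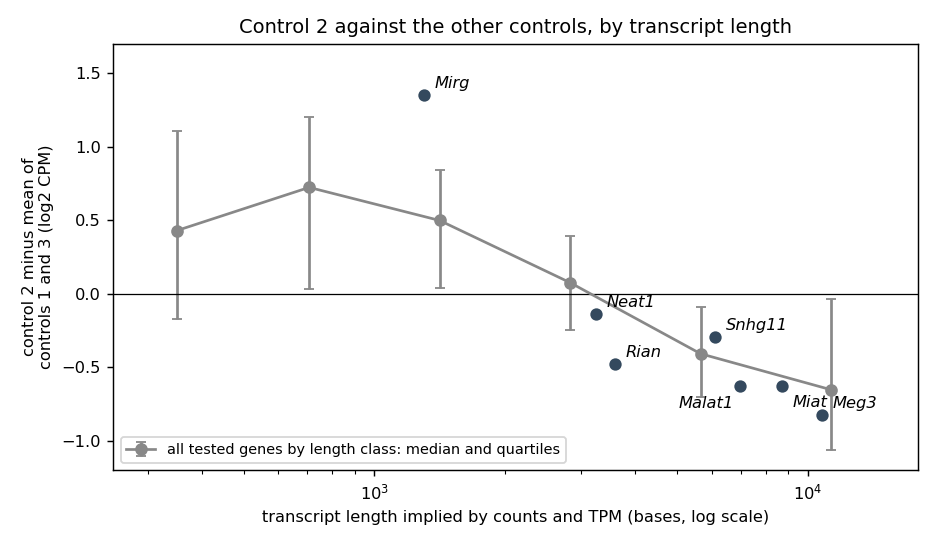
Difference in log2 CPM between control 2 and the mean of controls 1 and 3 against transcript length in bases (log scale); grey points are medians of all tested genes by length class, with quartiles, placed near the middle of each class, and dark points are the 7 RNAs. The class medians run from 0.72 at 500 to 1000 bases to -0.65 over 8000 bases, with Mirg above zero and the 6 longer RNAs below.

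Medians of other non-coding RNAs depended on control 2. The host genes of small nucleolar RNAs, relatives of Snhg11 by function, had 3 members higher and 16 lower of 19 tested. The median of the log2 fold changes was -0.37 with control 2 and 0.09 without it. Their median by library was -0.32, -0.09 and -0.31 in overexpression and -0.28, 0.83 and -0.45 in controls. Gas5, a growth-arrest host gene, had 81.6, 103 and 87.3 CPM in overexpression and 80.1, 202 and 79.4 CPM in controls, and Snhg14, the long host next to Ube3a, 605, 692 and 657 CPM in overexpression and 674, 579 and 648 CPM in controls. Snhg20 was the 1 with an unadjusted p under 0.05, against 2.8% of all tested genes that were lower at that p. Its log2 fold change was -1.31 ± 0.42 (SE), or -0.74 ± 0.29 (SE) without control 2, and its level stood at 4.48, 5.03 and 5.10 CPM in overexpression and 10.8, 19.9 and 5.52 CPM in controls.

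Of 30 further brain long non-coding RNAs, 16 were higher and 14 lower, with a median of 0.05, or -0.05 without control 2. At an unadjusted p under 0.05 there were 0 higher and 4 lower, namely Pantr1, Lncpint, 9530059O14Rik and Kcnq1ot1, which is also among the imprinted genes, and none was called. Of all tested genes, 1.86% were higher and 2.8% lower at that p. Pantr1, transcribed beside the cortical factor gene Pou3f3, had 22.0, 21.9 and 20.5 CPM in overexpression and 27.4, 63.5 and 27.1 CPM in controls. Norad, a cytoplasmic RNA that binds Pumilio proteins, had 1246, 1063 and 1256 CPM in overexpression and 1136, 985 and 1232 CPM in controls. RNAs without a poly(A) tail and histone genes had a median of -0.89 over 20 tested members, or -0.06 without control 2. Mitochondrially encoded mRNAs had a median of -0.22 over 13, or -0.14 without control 2, and 0.01 with the length trend removed.

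The genes nearest Neat1 in profile included genes of vessels and matrix. By root mean square difference of centred log2 CPM over the 6 libraries, among 9881 genes with a mean of at least 10 CPM, they were Col6a2 (0.12), Rgsl1 (0.14), Adgrl4 (0.14), Col6a1 (0.15), Col5a1 (0.19), Cxcl12 (0.22), Mdm1 (0.23) and Flt1 (0.24). Col6a2, a chain of collagen VI, had 38.8, 45.8 and 43.9 CPM in overexpression and 26.1, 25.2 and 19.4 CPM in controls. Adgrl4, a receptor of endothelial cells, had 36.0, 46.4 and 36.9 CPM in overexpression and 25.2, 18.3 and 20.7 CPM in controls. They were picked for likeness, so their difference between groups is not a result.

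Endothelial markers, like Neat1, mostly had higher values in overexpression. Of 14 markers, all tested, 11 were higher and 3 lower. The median of their log2 fold changes was 0.55 with control 2 and 0.54 without it, and 0.36 without overexpression library 2, where they were highest. Relative to the mean of controls, the median in log2 CPM was 0.32, 0.85 and 0.37 in overexpression and 0.08, -0.15 and -0.02 in controls. None was called over all genes, and 6 had an unadjusted p under 0.05, all of them higher, against 1.86% of all tested genes. Flt1, a receptor for vascular growth factor, is also among the genes picked above for likeness to Neat1. It had 83.7, 123 and 86.9 CPM in overexpression and 55.4, 47.2 and 59.2 CPM in controls, and no endothelial marker was at 0. The part of these cells in the Neat1 difference was not tested, and in bulk tissue more cells of a type and more RNA per cell cannot be told apart.

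No marker of another cell type was called either. Neuron markers had a median of -0.04 over 18 genes and astrocyte markers one of 0.03 over 14. Oligodendrocyte markers had a median of -0.32 over 15, with medians by library of -0.75, -0.35 and 0.0004 in overexpression and -0.23, 0.37 and -0.13 in controls, and microglia markers one of -0.26 over 13. Without control 2 these medians were -0.04, -0.07, -0.14 and 0.02. With all libraries, 8 neuron markers were higher and 10 lower, and 9 astrocyte markers higher and 5 lower. For oligodendrocyte markers 1 was higher and 14 lower, and for microglia markers 1 and 12. At an unadjusted edgeR p under 0.05, 1 astrocyte marker was higher, against 1.86% of all tested genes. Lower at that p were 1 neuron, 1 astrocyte, 2 oligodendrocyte and 1 microglia marker, against 2.8% of all tested genes. Opalin, a myelin gene, had 13.75, 10.5 and 14.9 CPM in overexpression and 25.6, 45.5 and 23.6 CPM in controls. Cortical neuron markers, with a median of -0.04 over 16 genes and 0.01 without control 2, were present, with Slc17a7 at 684, 696 and 782 CPM in overexpression and 728, 826 and 681 CPM in controls. Of the 16, 7 were higher and 9 lower. Tafa1, Lamp5 and Emx1 were the 3 lower at an unadjusted edgeR p under 0.05, against 2.8% of all tested genes. Their log2 fold changes were -0.99, -0.93 and -0.98, or -1.09, -0.78 and -0.45 without control 2. Striatal neuron markers were present too, with a median of -0.41 over 15 genes, -0.57 without control 2 and -0.0038 without control 3. Of the 15 striatal markers, 4 were higher and 11 lower. Penk was the 1 with an unadjusted edgeR p under 0.05, lower as were 2.8% of all tested genes at that p. Its log2 fold change was -1.5 ± 0.46 (SE), or -1.45 ± 0.51 (SE) without control 2. Ppp1r1b, with a log2 fold change of 0.05, was at 51.3, 118 and 79.1 CPM in overexpression and 54.4, 92.2 and 93.3 CPM in controls. The striatal list had medians by library of -0.53, -0.85 and 0.17 in overexpression and -0.51, -0.0009 and 0.54 in controls.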

How the data were processed

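RNA sequencing measured gene expression in 6 libraries, which were grouped by their titles into 3 WNT3 overexpression and 3 control samples; columns were matched by library name. The authors deposited whole-number counts per gene and, separately, TPM values for the same 50559 rows. Tools named, per the submitters' processing notes and without roles, are STAR 2.5.3a, FastQC 0.11.5, DESeq 1.16.1 and Cuffnorm, with the build mm10. How reads were counted, with which annotation and strand setting, is not given in the sources used here. Libraries are strand-specific per the labels' protocols, so reads of genes overlapping on opposite strands may be shared only as far as the counting ignored strand. The small RNA rows with a given strand lie on the strand of their host, where strand does not separate the reads.

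Counts were analysed with edgeR 4.0.16 in R 4.3.3 (filterByExpr with a minimum count of 10, TMM, quasi-likelihood F test, group only, 4 residual degrees of freedom, Benjamini-Hochberg over 22360 genes). CPM uses TMM-scaled library sizes. Each standard error is the size of the log2 fold change over the root of its F statistic. Totals of 42614588 to 71803617 counts set the precision. DESeq2 1.42.0 and limma 3.58.1 on log2 TPM were alternatives. The fit was tested on simulated data. That test does not show how well the fit finds differences given the spread between the libraries used here. List medians by library use log2(CPM + 0.5).

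Transcript length was implied by count divided by TPM, scaled so that Malat1 has its annotated length. Of 2608 genes with 1 GENCODE transcript and at least 20 counts in each library, 37.1% of the implied values lay within 5% of the annotated length and 55.1% within 20%, with a median ratio of 1.07. Row names follow RefSeq in 48908 cases. Coordinates are from GENCODE M21 (mm10 assembly) and sequences from RefSeq GRCm38.p6 and GENCODE M21.

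The members, lists and tests were chosen with earlier results of these data known. Besides the members, named genes were the 8 nearest Neat1 in profile and, from each list, the 3 with the smallest p and the 2 with the highest CPM. Nono, Pspc1, Bc1, Rn18s-rs5, Rn7sk, the chromosome 19 neighbours and the small RNAs inside the members were chosen after their values were seen. Members of the set were left out of the lists. Listed genes not found by name were looked up by RefSeq synonym.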

Additional observations from a re-analysis of the deposited data

How the results depend on the processing

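In the 18 alternatives run, the log2 fold changes of Neat1, Meg3, Miat and Snhg11 stayed above 0, at 0.89 to 1.5, 0.17 to 0.65, 0.10 to 0.55 and 0.17 to 0.59. Malat1 was below 0 in 14, Rian in 2 and Mirg in 13. Of 358 values, 333 moved by less than the spread between replicates, or by under 1.5 times for counts. On log2 TPM, Neat1 had 1.49 with a pseudocount of 1, with and without the minimum TPM, and 1.5 with 0.1, and Snhg11 had 0.587 and 0.588. edgeR and limma called 0 genes in every alternative at an adjusted p of 0.05, edgeR 0 also at 0.1, and DESeq2 called 64. With single libraries left out, genes at an unadjusted p under 0.05 ran from 619 (without overexpression library 1) to 1767 (without control 3), with 631 without overexpression library 2, 1611 without control 1, and 1040 with all.

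With single libraries left out, list medians ran as follows: paraspeckle proteins -0.0021 (without control 2) to 0.13, other imprinted genes -0.0044 to 0.24, other brain long non-coding RNAs -0.0469 to 0.16, non-polyadenylated RNAs -1.06 to -0.0619, astrocyte markers -0.0709 to 0.19, neuron markers -0.10 to -0.00082 and striatal neuron markers -0.60 to -0.0038 (without control 3). With the length trend removed, non-polyadenylated RNAs had -0.42, mitochondrial mRNAs 0.01, astrocyte markers -0.0591 and cortical neuron markers -0.12. The causes of these shifts were not tested. With the replicate number as a block in edgeR, 751 genes had an unadjusted p under 0.05 and Neat1 had 0.99. The deviations of same-numbered libraries correlated at 0.0616, -0.0208 and -0.0129 across genes, and those of differently numbered ones at -0.175 to 0.128. With 3 libraries per group and control 2 apart, these values cannot decide if the numbers pair the samples. Small RNAs under about 100 counts, including most hairpin rows, are limited by depth.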
